A study of Mus musculus with 9 samples.

Results

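The replication-dependent histone genes of mouse lie in clusters, and 22 of the 19938 genes measured with a feature of their own on the array were cluster genes for core histones. They were chosen by name: a gene entered when its symbol began with Hist and a digit, or in newer naming with H2ac, H2bc, H3c or H4c and a digit, and when 1 or more features carried that symbol alone. The 22 genes comprised 4 for H2A, 9 for H2B, 3 for H3 and 6 for H4, each read by 1 feature. By the RefSeq gene table of the assembly GRCm38.p6, 18 lie on chromosome 13 and 4 on chromosome 3 (H2bc18, H2bc21, H3c15 and H4c14). Linker histone (H1) genes of the chromosome 13 cluster carry H1f symbols in the newer naming and fell outside the name rule; they are described with the other histone genes. Near-identical copies of a histone gene can share probes even where a feature names 1 gene, so the value of a single member is uncertain to that degree.

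H2A, H2B, H3 and H4 form the protein core around which DNA is wound in the nucleosome. The cluster genes are transcribed mainly in S phase, when newly replicated DNA needs new histones, and NPAT brings their transcription under the control of cyclin E and its kinase. Their mRNAs lack introns and a poly(A) tail and end in a stem-loop that SLBP binds, and embryonic stem cells, which spend much of their cycle in S phase, are rich in them.

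The cells were mouse embryonic stem cells of a mixed S129S6-C57BL/6 background, kept on gelatin in medium with LIF, the leukaemia inhibitory factor (1000 U/ml), and 15% FCS (fetal calf serum), and harvested at sub-confluence. Flox cells, the controls, were β-catenin flox/-, with 1 allele deleted and the other floxed; null cells had both alleles deleted, and null Eα cells were null cells stably expressing E-cadherin fused to α-catenin. β-catenin links E-cadherin to α-catenin at cell junctions and carries Wnt signals to the nucleus, so the design sets loss of the protein against loss with the adhesion link supplied by the fusion. Each group had 3 arrays, labelled as biological replicates; the labels do not say whether they were separate lines or cultures of 1 line, so p-values measure the spread between these samples, and genotype and cell line cannot be told apart. Values are log2 RMA signals from total RNA on an Affymetrix whole-transcript array.

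Ctnnb1, which encodes β-catenin, read 11.13, 11.13 and 11.21 in flox, 10.47 to 10.55 in null, and 10.23, 10.13 and 10.32 in null Eα. Its signal was 63.7% of flox in null, lower by the limma fit over all genes (adjusted p = 2.82e-05), and whether its probes lie in the deleted exons is not given in the sources used here. Arrays of 1 group correlated at 0.986 or more over all features, and arrays of different groups at 0.935 to 0.980. The interquartile range of all features was 3.75 to 3.84 on flox arrays, 3.41 to 3.46 on null and 3.21 to 3.37 on null Eα arrays. All 10 stem cell markers examined were called in null against flox, 8 lower and 2 higher, and their summed linear signal was 25993 to 26302 in flox, 9678 to 11111 in null and 22475 to 23013 in null Eα. That of 15 fibroblast markers was 880 to 971, 8867 to 11030 and 4731 to 6080, with 13 of the 15 called higher in null and in null Eα than in flox. These marker shifts ran alongside the histone differences below, and their part in them was not tested. Fewer cells of a type and less RNA per cell cannot be told apart in bulk RNA.

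Histone cluster genes were mostly lower without β-catenin. In null against flox, 17 of the 22 were lower, 1 was higher and 4 were not called by limma at an adjusted p under 0.05, where 28.7% of all genes were called lower and 26.5% higher. The 18 called members stand beside 55.2% of all genes called in either direction. The median log2 difference of the 22 was -0.83, against 0.06 over all genes. Without dim genes it was -0.99 over the 16 members then tested, against -0.13 over all genes then tested. All 4 H2A genes fell, with a median of -1.37, as did 7 of 9 H2B genes (median -0.999) and 5 of 6 H4 genes (median -0.66). Of the 3 H3 genes 1 fell, and the H4 gene H4c9 rose. The arrays of the groups did not overlap for 19 members, 17 of them lower in null, beside 67.4% and 31.9% of all genes. On single arrays the median deviation of the 22 genes from their flox means was -0.03 to 0.02 in flox, -0.85 to -0.80 in null and -0.59 to -0.51 in null Eα.

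**Figure D1:**
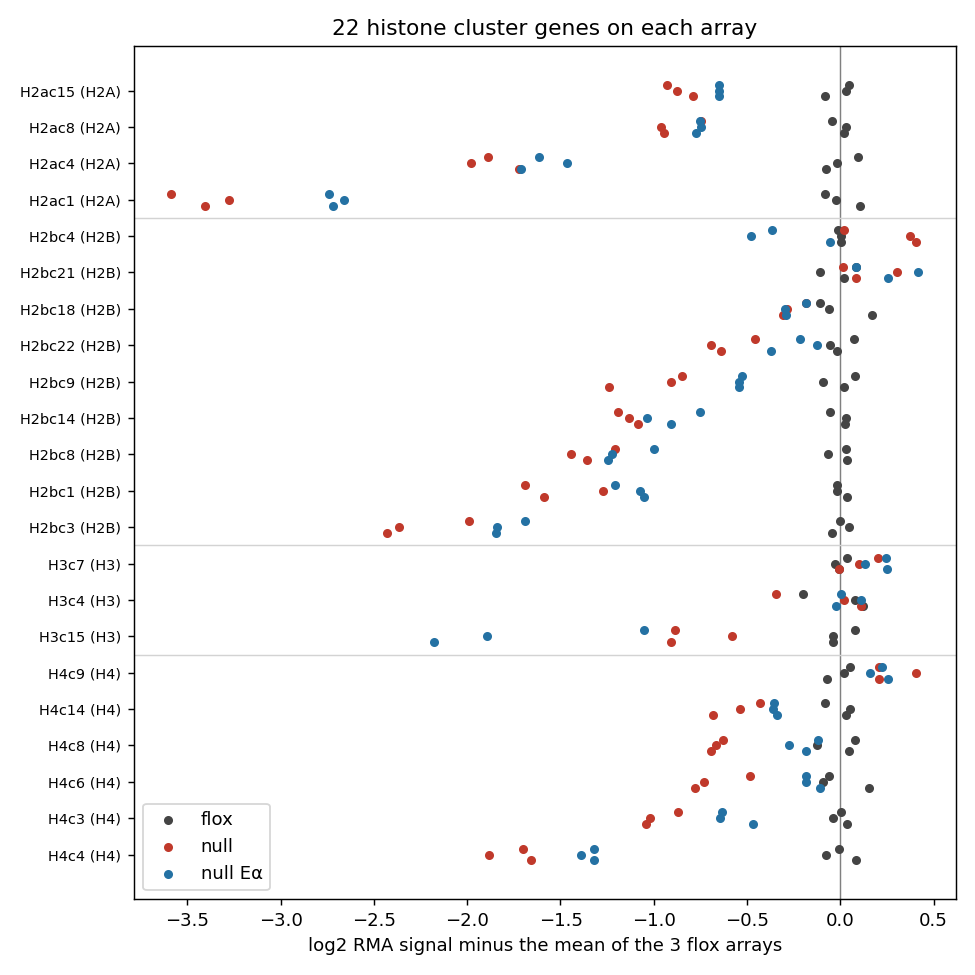
Log2 RMA signal of the 22 histone cluster genes (rows, by class) on each of the 9 arrays, minus the gene's mean over the 3 flox arrays; each point is 1 array, coloured by group. On each null and null Eα array, 17 to 19 of the 22 genes lie below the flox mean.

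In null Eα against flox, 15 members were lower, 2 were higher and 5 were not called, where 31.6% of all genes were called lower and 32.1% higher (63.7% in either direction). The median was -0.56, against 0.07 over all genes. Without dim genes it was -0.62 over the 16 members then tested, against -0.25 over all genes then tested. The 4 H2A genes (median -1.18) and 7 of 9 H2B genes (median -0.54) fell, while 3 of 6 H4 genes fell and 1 rose (median -0.27). With each array centred on its median, the split was 17 lower and 0 higher, since H3c7 and H4c9 lost their calls and H2bc4 and H4c8 were called lower. The arrays of null Eα and flox did not overlap for 19 members, 17 of them lower, beside 69.5% and 33.6% of all genes.

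Where null Eα and null cells differed, the members were mostly higher in null Eα. Of the 22 genes 10 were higher, 2 were lower (H2bc4 and H3c15) and 10 were not called, where 13.6% of all genes were called higher and 18.1% lower (31.7% in either direction). The median was 0.23, against 0.05 over all genes. H4 genes had the highest median (0.40, 4 of 6 higher), and H2A and H2B genes each had a median of 0.24, with 2 of 4 and 4 of 9 higher. None of the 12 called differences reached 2-fold. The arrays did not overlap for 15 members, 2 of them lower in null Eα, beside 43.1% and 21% of all genes. Both comparisons with flox share its 3 arrays, as the 2 comparisons with null share the null arrays, so the values of the groups are given side by side and no relation between comparisons was computed.

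**Figure D2:**
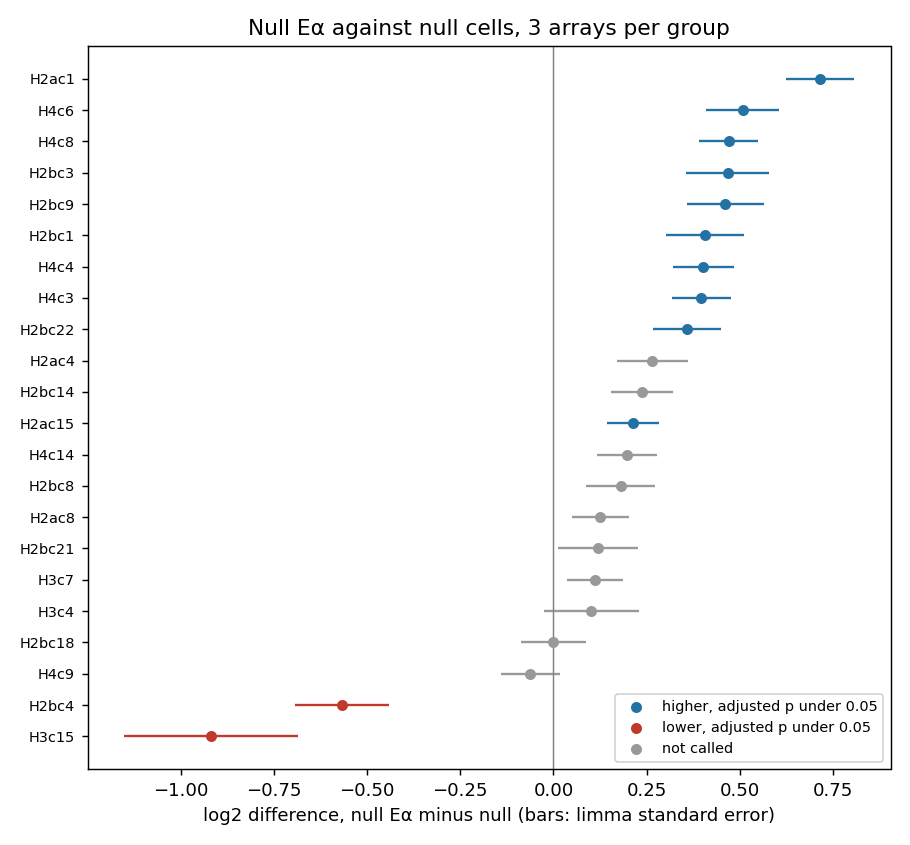
Log2 difference between null Eα and null (x axis) of the 22 histone cluster genes, ordered by its size, with limma standard errors as bars and colours for called and uncalled genes. The points run from -0.92 for H3c15 to 0.72 for H2ac1, with 10 called above 0 and 2 called below it.

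Among H2A genes, H2ac1 stood lowest against flox. It encodes TH2A, a variant known from testis and oocytes, and was called Hist1h2aa. Its log2 signal was 11.78, 11.65 and 11.59 in flox, 8.27, 8.39 and 8.08 in null, and 8.95, 9.01 and 8.93 in null Eα. The 3 groups did not overlap, and null Eα lay between the others, nearer to null. The difference from flox was -3.42 ± 0.09 (limma standard error, here and below) in null, a signal of 9.32% of flox (adjusted p = 1.65e-09), and -2.71 ± 0.09 in null Eα, 15.3% of flox (adjusted p = 2.29e-08). H2ac1 was 0.72 ± 0.09 higher in null Eα than in null (adjusted p = 0.000289).

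H2bc1, the partner gene that encodes TH2B (formerly Hist1h2ba), read 8.002, 7.95 and 7.95 in flox, 6.38, 6.69 and 6.27 in null, and 6.92, 6.89 and 6.76 in null Eα. Its groups were in the same order and did not overlap. It differed from flox by -1.52 ± 0.11 in null (adjusted p = 7.82e-07) and by -1.11 ± 0.11 in null Eα (adjusted p = 9.75e-06), and null Eα exceeded null by 0.41 ± 0.11 (adjusted p = 0.0148). The last call was lost without null replicate 3 (0.32, adjusted p = 0.0565) and without null Eα replicate 1 (0.38, adjusted p = 0.0515). H2ac1 and H2bc1 are transcribed away from each other from starts 281 bases apart, so most of the promoter printed next for H2ac1 also precedes H2bc1: the 2 windows share 220 bases.

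The promoters of 6 members are printed to show what precedes genes among those that fell furthest and the gene that rose. Each is the 250 bases before the start in RefSeq's GRCm38.p6, 5′ to 3′ on the gene's strand, with capitals for matches, on either strand, to 4 motifs: the CCAAT box, the TATAAA box, the octamer ATTTGCAT known from H2B promoters, and the box AAACACA known from H1 promoters. No matches overlapped in these windows. The genes are H2ac1 (chr13:23934187-23934436, plus strand), H2ac4 (chr13:23750838-23751087, plus), H2bc3 (chr13:23746484-23746733, plus), H2bc8 (chr13:23571150-23571399, plus), H4c4 (chr13:23581318-23581567, plus) and H4c9 (chr13:22041363-22041612, minus).
H2ac1: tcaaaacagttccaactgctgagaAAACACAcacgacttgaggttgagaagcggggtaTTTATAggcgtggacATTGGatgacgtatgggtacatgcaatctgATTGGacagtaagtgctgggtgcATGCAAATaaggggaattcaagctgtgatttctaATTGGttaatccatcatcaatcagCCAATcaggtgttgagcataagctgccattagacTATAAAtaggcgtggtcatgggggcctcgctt
H2ac4: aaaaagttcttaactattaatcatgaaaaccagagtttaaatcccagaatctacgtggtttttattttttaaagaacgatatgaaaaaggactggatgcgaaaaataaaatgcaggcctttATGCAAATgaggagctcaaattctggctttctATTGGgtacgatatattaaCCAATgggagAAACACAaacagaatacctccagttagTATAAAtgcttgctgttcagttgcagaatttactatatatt
H2bc3: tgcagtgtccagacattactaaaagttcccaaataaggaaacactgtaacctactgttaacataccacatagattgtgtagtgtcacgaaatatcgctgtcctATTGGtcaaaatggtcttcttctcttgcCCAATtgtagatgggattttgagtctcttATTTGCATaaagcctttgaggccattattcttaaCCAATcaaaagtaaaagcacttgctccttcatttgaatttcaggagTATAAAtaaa
H2bc8: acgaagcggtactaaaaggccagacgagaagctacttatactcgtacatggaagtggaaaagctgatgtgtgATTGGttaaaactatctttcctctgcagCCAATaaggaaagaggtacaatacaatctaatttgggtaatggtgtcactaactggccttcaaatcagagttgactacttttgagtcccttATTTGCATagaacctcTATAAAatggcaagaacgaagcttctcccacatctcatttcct
H4c4: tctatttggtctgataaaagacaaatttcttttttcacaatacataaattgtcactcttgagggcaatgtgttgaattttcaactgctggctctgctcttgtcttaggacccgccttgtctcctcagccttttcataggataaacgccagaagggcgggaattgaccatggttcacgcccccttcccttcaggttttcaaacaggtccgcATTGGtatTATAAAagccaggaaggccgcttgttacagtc
H4c9: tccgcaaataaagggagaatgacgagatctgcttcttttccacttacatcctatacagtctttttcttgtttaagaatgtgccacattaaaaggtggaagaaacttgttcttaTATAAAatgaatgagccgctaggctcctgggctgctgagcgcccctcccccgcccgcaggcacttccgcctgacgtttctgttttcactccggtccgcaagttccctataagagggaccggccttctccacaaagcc

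The promoter table matched 18 of the 22 members, with no entry for H2bc21, H2bc4, H3c7 and H4c14. CCAAT stood in 14 of the 18 windows (77.8%), in each of 4 H2A and 7 H2B genes, beside 33.8% of the 32851 windows of the table. TATAAA stood in 11 (61.1%, beside 12.4%). The octamer ATTTGCAT was in 8 (44.4%, beside 1.6%), namely 3 of 4 H2A genes, 5 of 7 H2B genes and none of 2 H3 and 5 H4 genes. AAACACA was in 4 (22.2%, beside 6.25%): H2ac1, H2ac4, H2bc1 and H2bc14. A further motif, the E2F site TTTCGCGC, was in H2bc22 alone (5.56%, beside 0.256%). The 8 genes with the octamer were among the 16 members with a window that fell in null, and the other 8 that fell lacked its letters. H4c9, the gene that rose, had no CCAAT and had its TATAAA 137 bases before the start. Neither trait was particular to it: H3c15, H4c6 and H4c8, which fell in null, also had no CCAAT. The only TATAAA of H2ac8, H2bc22 and H4c6, which fell too, lay 142, 212 and 250 bases before the start. A match is a description of the letters, and H2ac1 with H2bc1, and H2ac8 with H2bc8 (starts 180 bases apart), share sequence. Matches there, such as each pair's octamer and the AAACACA of H2ac1 and H2bc1, are single sites counted for both genes.

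H2ac4 (Hist1h2ab) read 9.44, 9.50 and 9.62 in flox, 7.80, 7.54 and 7.63 in null, and 7.81, 8.05 and 7.90 in null Eα. It differed from flox by -1.86 ± 0.10 in null and -1.60 ± 0.10 in null Eα, and those groups did not overlap flox. Null Eα was 0.27 above null (adjusted p = 0.0580), a difference called without null replicate 1 (0.34, adjusted p = 0.0318) or null Eα replicate 1 (0.32, adjusted p = 0.0490). The difference was also called with quantile normalization (0.37, adjusted p = 0.0172) and with chromosomes centred (0.33, adjusted p = 0.0191). Without dim genes it was called as well (adjusted p = 0.0409). H2ac15, the H2A member with the highest mean across all arrays, though below H2ac1 in flox, read 11.20, 11.31 and 11.32 in flox, 10.49, 10.40 and 10.35 in null, and 10.62 on each null Eα array. It differed from flox by -0.87 ± 0.07 in null and by -0.65 ± 0.07 in null Eα, without overlap. Identical values on the 3 arrays of a group also occurred in 3.07% of all genes. The call of H2ac15 for its rise of 0.21 from null to null Eα (adjusted p = 0.0412) was lost on leaving out any 1 of the null Eα arrays, null replicate 2 or 3, or flox replicate 2 or 3 (adjusted p 0.0509 to 0.125). That call was also lost with arrays centred (0.17, adjusted p = 0.104) and with only the compared groups fitted (adjusted p = 0.0737). So it was with the replicate block (adjusted p = 0.0639) and with all features adjusted together (adjusted p = 0.0507). H2ac8 read 5.001 to 5.08 in flox, 4.09 to 4.30 in null and 4.27 to 4.30 in null Eα. Its means in null and null Eα lay under the lower quartile of all features on those arrays, and its differences from flox were -0.88 (95% interval -1.05 to -0.72) in null and -0.76 (95% interval -0.93 to -0.59) in null Eα.

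Of the H2B genes, H2bc3 (Hist1h2bb) was lowest against flox. Its log2 signal was 10.48, 10.57 and 10.52 in flox, 8.10, 8.16 and 8.54 in null, and 8.68, 8.68 and 8.83 in null Eα. No group overlapped another. The differences from flox were -2.26 ± 0.11 in null, 20.9% of the flox signal (adjusted p = 7.71e-08), and -1.79 ± 0.11 in null Eα, 28.8% of it (adjusted p = 5.50e-07). Null Eα exceeded null by 0.47 ± 0.11 (adjusted p = 0.00997).

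H2bc14, the brightest H2B member, read 11.21, 11.21 and 11.13 in flox, 10.09, 10.05 and 9.99 in null, and 10.27, 10.14 and 10.43 in null Eα. It was at 45.5% of flox in null and 53.6% in null Eα. H2bc8 was at 39.6% and 44.9%, and H2bc9 at 50.03% and 68.9%. From null to null Eα, H2bc9 rose by 0.46 ± 0.10 (adjusted p = 0.00705) and H2bc22 by 0.36 ± 0.09 (adjusted p = 0.0135), while H2bc14 (0.24, adjusted p = 0.0546) and H2bc8 (0.18, adjusted p = 0.161) were not called. H2bc22 lost that call without null replicate 2 (0.31, adjusted p = 0.0510) or null Eα replicate 2 (0.30, adjusted p = 0.0510), and H2bc14 gained one without null Eα replicate 2 (0.31, adjusted p = 0.0258). H2bc14 also gained it with quantile normalization (0.34, adjusted p = 0.0100) and with chromosomes centred (0.30, adjusted p = 0.0185). The same held with limma's trended, robust prior (adjusted p = 0.0233) and without dim genes (adjusted p = 0.0364). H2bc22 differed from flox by -0.60 in null (adjusted p = 0.000255) and by -0.24 in null Eα (adjusted p = 0.0411), and the second call was lost without any 1 of the flox arrays, null replicate 1, or null Eα replicate 1 or 3 (adjusted p 0.0502 to 0.139). It was also lost with each chromosome centred (-0.097, adjusted p = 0.341), with limma's trended, robust prior (adjusted p = 0.0535) and with all features adjusted together (adjusted p = 0.0529). With quantile normalization the fall of H2bc9 in null Eα was no longer called (-0.27, adjusted p = 0.0609).

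The other H2B genes, H2bc4, H2bc21 and H2bc18, had smaller differences between null and flox. H2bc4 (Hist1h2bc) read 7.46, 7.46 and 7.44 in flox, 7.86, 7.82 and 7.47 in null, and 7.40, 6.97 and 7.08 in null Eα. Null replicate 3 lay just above the flox arrays, and null Eα lay below both other groups. H2bc4 was lower in null Eα than in null by -0.57 ± 0.13 (adjusted p = 0.00722). Its difference from flox was 0.27 in null (95% interval -0.02 to 0.55, adjusted p = 0.0992) and -0.30 in null Eα (adjusted p = 0.0610). Without null replicate 3 these were 0.39 (adjusted p = 0.0221) and -0.30 (adjusted p = 0.0349), and without null Eα replicate 1 the latter was -0.42 (adjusted p = 0.0138). The difference in null was called with quantile normalization (0.43, adjusted p = 0.0236) and with chromosomes centred (0.35, adjusted p = 0.0408), and that in null Eα with arrays centred (-0.38, adjusted p = 0.0275). H2bc21 (Hist2h2be), on chromosome 3, was not called in any comparison: it read 4.39 to 4.59 in flox, 4.51 to 4.81 in null and 4.59 to 4.92 in null Eα, with a 95% interval of -0.11 to 0.38 for null against flox. Against flox in null Eα its difference of 0.25 (adjusted p = 0.0617) was called without null replicate 2 (adjusted p = 0.0494) or null Eα replicate 3 (0.34, adjusted p = 0.0195). H2bc18, also on chromosome 3, fell by 0.26 ± 0.09 in null (adjusted p = 0.0293) and in null Eα (adjusted p = 0.0261). Its calls were lost without flox replicate 1 (-0.17 in both, adjusted p 0.112 and 0.101), in null also without null replicate 1 or 2 (adjusted p 0.0813 and 0.0799), and in null Eα without its replicate 1 or 2 (adjusted p 0.0686 and 0.0677). With quantile normalization its differences were -0.06 in null (adjusted p = 0.591) and 0.038 in null Eα (adjusted p = 0.75).

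Among H4 genes, H4c4 (Hist1h4d), the brightest H4 member, was lowest against flox. It read 12.65, 12.49 and 12.56 in flox, 10.91, 10.69 and 10.87 in null, and 11.25, 11.18 and 11.25 in null Eα. No group overlapped another. It differed from flox by -1.75 ± 0.08 in null, 29.8% of flox (adjusted p = 5.36e-08), and by -1.34 ± 0.08 in null Eα, 39.4% of flox (adjusted p = 4.68e-07). Null Eα exceeded null by 0.40 ± 0.08 (adjusted p = 0.00426).

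H4c6 (Hist1h4f) had the largest H4 difference between null Eα and null. Its values were 11.31, 11.07 and 11.10 in flox, 10.38, 10.43 and 10.67 in null, and 11.05, 10.97 and 10.97 in null Eα. It fell by 0.67 ± 0.10 in null (adjusted p = 0.000197), and null Eα exceeded null by 0.51 ± 0.10 (adjusted p = 0.00318). Null Eα was 0.16 below flox (95% interval -0.38 to 0.06, adjusted p = 0.177). H4c8 had the same order, with 6.24 to 6.44 in flox, 5.67 to 5.73 in null and 6.09 to 6.24 in null Eα. Its differences were -0.66 for null against flox (adjusted p = 4.09e-05), 0.47 for null Eα against null (adjusted p = 0.00142) and -0.19 for null Eα against flox (adjusted p = 0.0530). The last was called without flox replicate 2 (-0.25, adjusted p = 0.0278) or null Eα replicate 3 (-0.23, adjusted p = 0.0373). It was also called with quantile normalization (-0.23, adjusted p = 0.0303) and with arrays centred (-0.27, adjusted p = 0.0146). So it was without dim genes (adjusted p = 0.0438) and with the replicate block (adjusted p = 0.0460). H4c3 was at 50.8% of flox in null and 66.8% in null Eα, and rose by 0.40 from null to null Eα (adjusted p = 0.00393). H4c14 was at 68.3% and 78.3% of flox, with 0.20 between null and null Eα (adjusted p = 0.0864), and with quantile normalization its fall in null Eα was not called (-0.21, adjusted p = 0.0570). The difference of H4c14 between null Eα and null was called with quantile normalization (0.26, adjusted p = 0.0343), with chromosomes centred (0.42, adjusted p = 0.00606) and with the trended, robust prior (adjusted p = 0.0364).

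H4c9 (Hist1h4i) was the member that rose in null. It read 7.31, 7.40 and 7.43 in flox, 7.59, 7.79 and 7.59 in null, and 7.64, 7.54 and 7.60 in null Eα. Flox lay below both other groups, which overlapped. It rose by 0.27 ± 0.08 in null (adjusted p = 0.0132) and by 0.21 ± 0.08 in null Eα (adjusted p = 0.0369). The first call was lost without flox replicate 1 (0.24, adjusted p = 0.0518) or null replicate 2 (0.21, adjusted p = 0.0545), and the second without any 1 of the flox arrays or null Eα replicate 1 or 3 (adjusted p 0.0513 to 0.118).

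**Figure D3:**
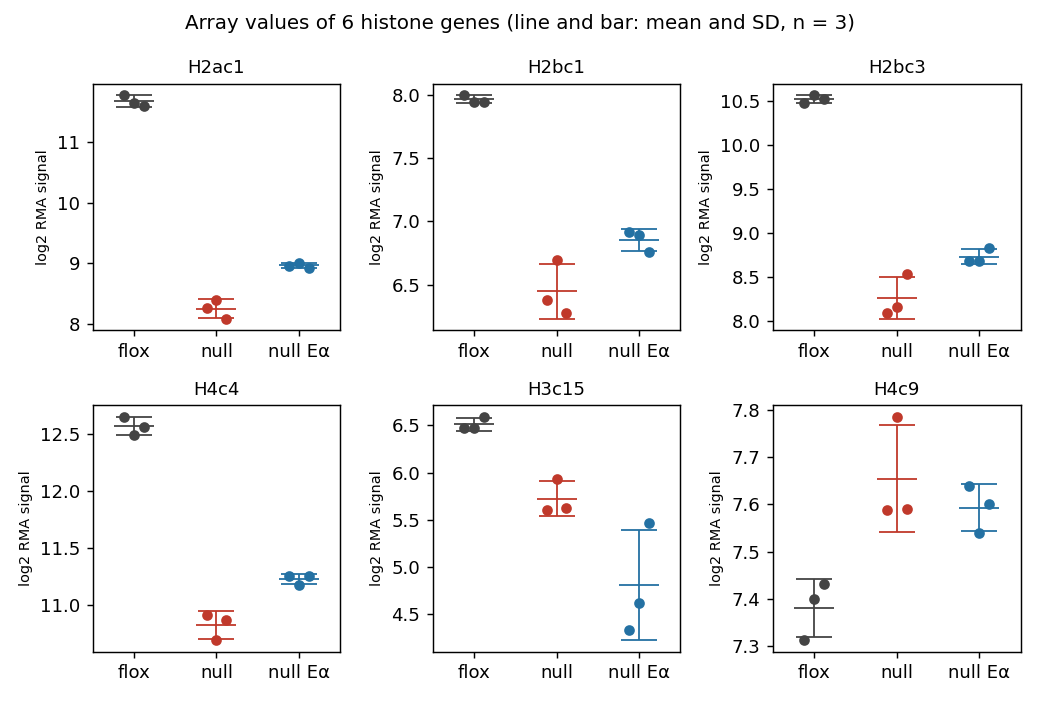
Log2 RMA signal on each array (points) with the mean and SD of each group (line and bars, n = 3) for H2ac1, H2bc1, H2bc3, H4c4, H3c15 and H4c9, each on its own scale. H2ac1, H2bc1, H2bc3 and H4c4 run flox, null Eα, null from high to low, H3c15 runs flox, null, null Eα, and H4c9 is lowest in flox.

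Of the 3 H3 genes, H3c15 was lower in both comparisons with flox. H3c15 (Hist2h3c2), on chromosome 3, read 6.47, 6.47 and 6.59 in flox, 5.60, 5.93 and 5.63 in null, and 4.33, 4.62 and 5.46 in null Eα. The groups did not overlap, and null Eα was the lowest and the most spread, with 2 of its 3 arrays under their lower quartile of all features. It differed from flox by -0.79 ± 0.23 in null (adjusted p = 0.0149) and by -1.71 ± 0.23 in null Eα (adjusted p = 0.000130), and was lower in null Eα than in null by -0.92 ± 0.23 (adjusted p = 0.0136). The first call was lost without flox replicate 3 (-0.75, adjusted p = 0.0513) or null replicate 1 (-0.73, adjusted p = 0.0528), and the last without null replicate 2 (-0.81, adjusted p = 0.0510) or null Eα replicate 2 (-0.82, adjusted p = 0.0540).

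H3c4, the brightest H3 member by its mean across all arrays, read 5.93, 5.89 and 5.61 in flox, 5.92, 5.83 and 5.47 in null, and 5.79, 5.92 and 5.81 in null Eα. The groups overlapped, and the 95% interval for null against flox was -0.35 to 0.21. H3c7 was dim in every group, under the lower quartile of all features: it read 3.33, 3.30 and 3.37 in flox, 3.33, 3.43 and 3.53 in null, and 3.58, 3.46 and 3.58 in null Eα. Its difference of 0.21 between null Eα and flox (adjusted p = 0.0344) was lost without any 1 of the flox arrays or null Eα replicate 1 or 3 (adjusted p 0.0551 to 0.0980), with quantile normalization (0.035, adjusted p = 0.739) and with each array centred (0.13, adjusted p = 0.193). It was 0.10 higher in null, a difference not called (95% interval -0.07 to 0.27).

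Most cluster genes are so alike that the array pools them, and 26 features carried several symbols with a cluster gene among them (24 distinct sets of values). They were left out of the 22 and were fitted with all 35556 features. Of the 26, 24 were lower in null than in flox, beside 23.4% of all features, and 24 were lower in null Eα than in flox, beside 25.1%. The 10 H3 features, which share 12 symbols and are therefore not independent, read 12.84 to 13.22 in flox, 12.11 to 12.58 in null and 12.05 to 12.59 in null Eα, with medians of -0.69 and -0.65 against flox and 0.04 between null Eα and null. The 6 H4 features had medians of -0.89 in null and -0.57 in null Eα, and 5 were higher in null Eα than in null (median 0.33 over the 6), beside 9.55% of all features. Those 5 carry 11 symbols each, and the 6 hold 5 distinct sets of values, so they are not independent calls. The 7 H2B features had medians of -0.63 and -0.42, and their differences of 0.15 to 0.22 between null Eα and null were not called (adjusted p 0.0567 to 0.142). With 14 or 15 symbols each, these 7 are not independent either. The 2 H2A features, with 19 and 20 symbols, read 12.18 to 12.53 in flox, 12.11 to 12.56 in null and 12.17 to 12.57 in null Eα and were not called in any comparison; their differences from flox were -0.04 and 0.01 in null. The pooled H2B, H3 and H4 features were thus lower in both lines without β-catenin, and the pooled H2A features were not called. The remaining feature names H2bc6 with the linker gene H1f4, and differed from flox by -0.43 in null and -0.40 in null Eα.

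Between the first and the last member lie 13 other measured genes, leaving aside the linker histone genes and 28 vomeronasal and olfactory receptor genes. Of these 4 were higher and 3 lower in null than in flox (median 0.05), and 5 were higher and 2 lower in null Eα (median 0.18). Several were dim: the flox means of Slc17a1, Slc17a2 and Slc17a4 (4.201, 3.72 and 4.15) lay under the lower quartile of all features on each flox array. Those of Btn1a1 and Slc17a3 (4.397 and 4.41) lay near it. Btn1a1, Slc17a1 and Slc17a3 were among those called higher in null, so these rises rest on dim signals. The brighter Abt1 and Prss16 were not called in either comparison with flox. All genes were called higher in 26.5% and lower in 28.7% in null, and in 32.1% and 31.6% in null Eα. Zfp322a, a zinc finger gene, rose by 1.97 in null and 0.84 in null Eα, while Trim38 differed by -0.61 in null and -0.40 in null Eα and Btn2a2 by -0.59 and -0.51. The median difference of the other brighter genes of chromosome 13 (399 genes) was -0.05 in null and -0.14 in null Eα, and that of chromosome 3 (522 genes) was 0.15 and -0.09. H2bc3 and H2ac4 are neighbours there, as are H2bc1 and H2ac1, and these 4 genes with H4c4 had the differences furthest below 0 in null.

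**Figure D4:**
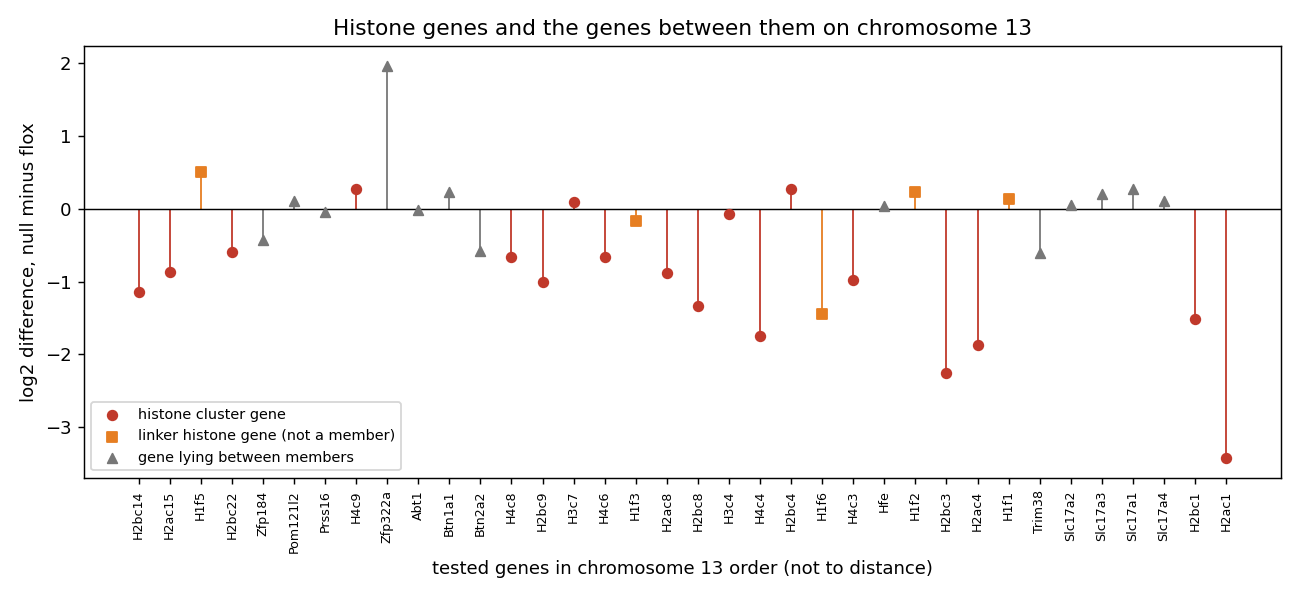
Log2 difference between null and flox (y axis) for the cluster genes, the linker histone genes and the genes between them on chromosome 13, in gene order (the x axis is rank, not distance). Of the 18 cluster genes 15 lie below 0, down to -3.42 for H2ac1, and the genes between them lie from -0.61 to 1.97.

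Linker and variant histone genes from outside the name rule moved in both directions. Over all genes, 26.5% were called higher and 28.7% lower in null against flox, and 32.1% and 31.6% in null Eα against flox. Of the 5 linker genes H1f1, H1f2, H1f3, H1f5 and H1f6, in null 1 rose and 1 fell, and in null Eα 2 rose and 2 fell. H1f5 rose by 0.51 ± 0.07 in null (adjusted p = 0.000101) and 0.68 ± 0.07 in null Eα. H1f6, the testis linker histone, differed from flox by -1.45 ± 0.16 in null (adjusted p = 2.67e-05) and by -0.66 ± 0.16 in null Eα, and rose by 0.78 between null and null Eα (adjusted p = 0.00468). In all, of 17 histone genes outside the core clusters' naming, 2 were higher and 8 lower in null (median -0.16), 5 higher and 8 lower in null Eα (median -0.20), and 6 higher and 3 lower in null Eα against null (median 0.17), beside 13.6% and 18.1% of all genes in the last comparison. Without dim genes 13 remained to be tested, with medians of -0.58 in null and -0.56 in null Eα, and without null Eα replicate 2 the median of null Eα against null was 0.017. Over the alternative settings and arrays left out, 1 to 6 were higher and 8 to 9 lower in null, 3 to 6 and 7 to 9 in null Eα against flox, and 5 to 9 and 1 to 5 in null Eα against null.

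Among variant genes, Macroh2a1, whose product carries a large macro domain, differed from flox by -1.92 ± 0.10 in null (adjusted p = 1.34e-07) and by -1.27 ± 0.10 in null Eα, and rose by 0.65 between null and null Eα (adjusted p = 0.00107). The linker variant H1f10 differed by -1.65 ± 0.09 in null and -2.0004 ± 0.09 in null Eα (adjusted p = 1.63e-07 and 8.93e-08). H2az2, for an H2A.Z protein, differed by -1.27 in null and by -1.54 ± 0.12 in null Eα (adjusted p = 1.88e-06). Cenpa, the centromeric H3, fell by 0.80 ± 0.07 in null (adjusted p = 3.96e-06). Macroh2a2 differed by -0.87 in null and by -2.08 in null Eα, and was lower in null Eα than in null by -1.21 ± 0.18 (adjusted p = 0.000733).

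Genes that make and process histone mRNA moved in both directions. Of 16, 4 were higher and 6 lower in null against flox (median -0.17), 2 higher and 9 lower in null Eα against flox (median -0.35), and 0 higher and 5 lower in null Eα against null (median -0.16). All genes were called higher in 26.5% and lower in 28.7% in null, in 32.1% and 31.6% in null Eα against flox, and in 13.6% and 18.1% in null Eα against null. Over the alternatives the list's medians were -0.20 to -0.01, -0.43 to -0.12 and -0.22 to -0.05; 3 to 6 were higher and 6 to 8 lower in null, 2 to 4 and 7 to 10 in null Eα against flox, and 0 to 1 and 4 to 6 in null Eα against null. Npat, the coactivator of the clusters, read 9.13, 9.19 and 9.24 in flox, 8.77, 8.78 and 8.63 in null, and 8.56, 8.47 and 8.64 in null Eα. It was lower than flox without overlap, by -0.46 ± 0.08 in null (adjusted p = 0.000525) and -0.63 ± 0.08 in null Eα (adjusted p = 6.60e-05), and null Eα differed from null by -0.17 (adjusted p = 0.129). Slbp, the stem-loop binding protein, ran the other way, with 8.89, 9.06 and 9.004 in flox, 9.88, 9.68 and 9.47 in null, and 9.47, 9.50 and 9.59 in null Eα. It rose by 0.69 ± 0.10 in null (adjusted p = 0.000223) and by 0.54 ± 0.10 in null Eα (adjusted p = 0.00124).

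The enzymes and scaffolds of the 3′ end were split as well. Cpsf3, the endonuclease that cuts histone pre-mRNA, differed from flox by -0.99 ± 0.07 in null and -0.85 ± 0.07 in null Eα, and its partner Cpsf2 rose by 1.00 ± 0.07 and 0.77 ± 0.07. Eri1, an exonuclease that trims histone mRNA ends, differed by -0.95 in null and -1.38 in null Eα. Casp8ap2 (FLASH), a scaffold of the histone locus body, differed by -1.18 in null and -1.24 in null Eα, and Coil, the coilin of Cajal bodies, by -1.39 and -1.70. Lsm11, of the U7 particle that recognises the pre-mRNA, rose by 0.44 in null and fell by 0.76 in null Eα, so that null Eα was below null by -1.20 ± 0.15 (adjusted p = 0.000228). In the same comparison Upf1, a helicase of RNA decay, differed by -0.46 and the scaffold Sympk by -0.44.

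Histone chaperones, which carry new histones to DNA, were called higher and lower about as often as all genes in the comparisons with flox. Of 16, 5 were higher and 6 lower in null (median 0.04), beside 26.5% and 28.7% of all genes. In null Eα against flox 4 were higher and 4 lower (median 0.00), beside 32.1% and 31.6%. In null Eα against null 4 were higher and 2 lower (median 0.07), beside 13.6% and 18.1%. Over the alternatives these counts were 5 to 7 and 4 to 7, 4 to 7 and 3 to 6, and 1 to 6 and 0 to 2, with medians of -0.09 to 0.17, -0.08 to 0.21 and 0.01 to 0.14. Asf1b, an H3 and H4 chaperone of dividing cells, differed from flox by -1.44 ± 0.14 in null and -1.56 ± 0.14 in null Eα, and Chaf1b, of chromatin assembly factor 1, by -0.71 ± 0.07 in null. Anp32e, which removes H2A.Z, rose by 1.45 ± 0.10 in null and 1.11 ± 0.10 in null Eα. Nasp rose by 0.42 in null and 0.77 in null Eα, and null Eα exceeded null for Nasp (0.35) and for the H3.3 chaperone Hira (0.44).

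Genes of S phase and DNA replication were mostly lower in both lines. Of 29, 20 were lower and 4 higher in null (median -0.54), beside 28.7% and 26.5% of all genes. In null Eα against flox 19 were lower and 4 higher (median -0.50), beside 31.6% and 32.1%. With quantile normalization 14 were lower and 8 higher in null Eα, with a median of -0.23. In null Eα against null 6 were higher and 3 lower (median 0.09), beside 13.6% and 18.1% of all genes. Without null replicate 1, 11 were higher in null Eα than in null. Over the alternatives 17 to 20 were lower and 2 to 5 higher in null, and 14 to 21 lower and 0 to 8 higher in null Eα against flox. E2f1, a transcription factor of S phase genes, differed from flox by -2.03 ± 0.09 in null and -1.46 ± 0.09 in null Eα. Cdt1, which loads the replicative helicase, differed by -1.68 and -1.09, and Tyms, which makes thymidylate, by -1.32 and -0.69. Between null and null Eα E2f1 rose by 0.57, Cdt1 by 0.59 and Tyms by 0.63. Mcm2, a helicase subunit, differed from flox by -0.55 in null and -1.12 in null Eα, and null Eα from null by -0.56 ± 0.08 (adjusted p = 0.000485). In both comparisons with flox these lower values stood beside those of the cluster genes, and their part in the histone differences was not tested. In null Eα against null 20 of the 29 were not called.

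**Figure D5:**
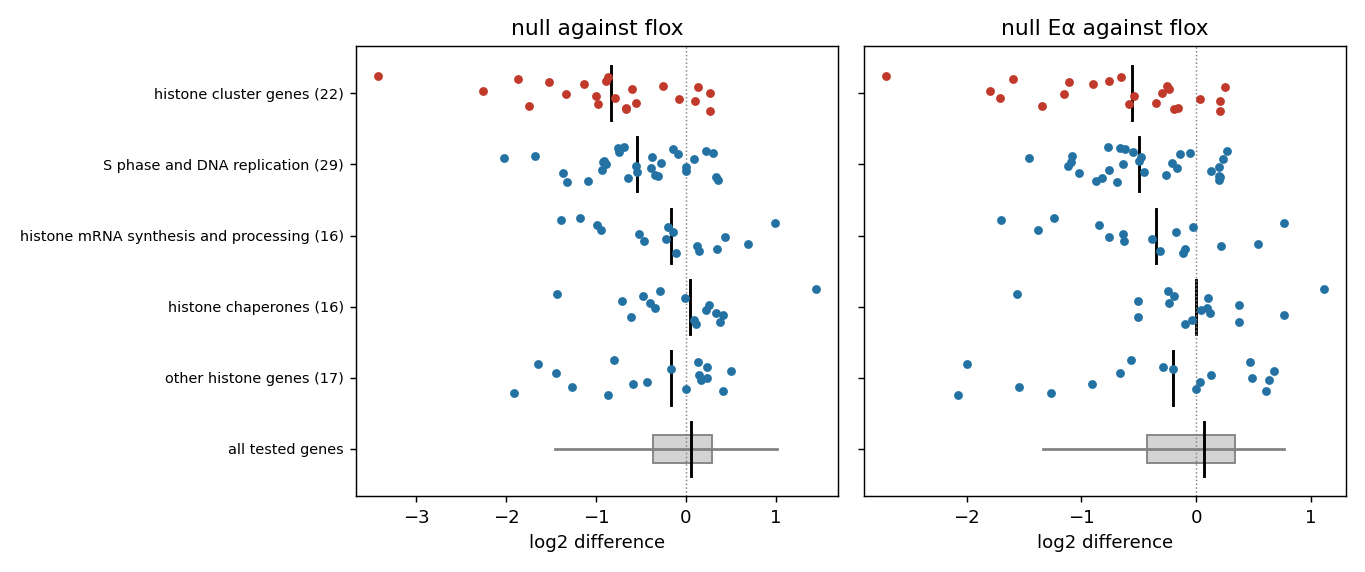
Log2 differences from flox in null and in null Eα (panels) of each histone cluster gene and each measured gene of the 4 lists (points). Black lines are medians, and the grey box and line give the middle 50% and 90% of all tested genes. In both comparisons with flox, the medians of the cluster genes (-0.83 and -0.56) and of the S phase genes (-0.54 and -0.50) lie below those of the other lists, though without dim genes the list of other histone genes has medians of -0.58 and -0.56.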

How the data were processed

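The table deposited by the authors gives, for each transcript cluster and array, a log2 RMA value, from RMA in an unstated version per the submitters' processing notes; the genome build and whether the 9 arrays were normalized together are not given in the sources used here. Values were used as deposited. Of 35556 features, 21789 carried 1 gene symbol in the platform annotation, and the feature with the highest mean was kept for each of 19938 genes. The test was limma's (version 3.58.1, R 4.3.3): lmFit with group means over the 9 arrays together, then eBayes, which left 6 residual degrees of freedom and a prior of 4.04, with Benjamini-Hochberg adjustment over all genes for each of 3 comparisons and calls at an adjusted p under 0.05. The script was tested on simulated data. Percentages of flox are 2 raised to the log2 difference, and intervals are limma's 95% intervals. The number of arrays limits the precision. The members, the 4 lists of other genes and the markers were chosen with earlier results of these data known, and no set test was run. Ssrp1, H3f3b, H1f0, H3f3c and H1f4 had no feature of their own and were left out of their lists. All members may be named; values on each array are given for the largest called rise and fall and the brightest member of each class and comparison, for further members chosen after their values were seen, and, of each list, values for the 3 genes with the smallest p, Npat and Slbp. Alternatives covered normalization, dim genes, the prior, the replicate block, chromosome centring and leaving out each array. Promoters came from RefSeq (GRCm38.p6). Figures were drawn with matplotlib 3.10.9.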

Additional observations from a re-analysis of the deposited data

How the results depend on the processing

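Over 20 alternatives (19 planned, and 1 chosen after seeing the data that adjusted all features of the table together), the number of members lower in null than in flox was 14 to 17 (14 without dim genes, where 16 members were tested). It was 13 to 17 in null Eα against flox (13 with quantile normalization, with chromosomes centred and without flox replicate 1), and 8 to 13 were higher in null Eα than in null. Of the 18 members called in null against flox, 15 kept direction and call in each alternative that tested them; so did 11 of 17 in null Eα against flox and 8 of 12 against null. Each member has 1 feature, so the choice of feature changed no member's value. In null against flox the number higher (1) was 2 with quantile normalization and with each chromosome centred on its median, and 0 to 2 with 1 array left out; the median (-0.83) was -0.78 with quantile normalization, -0.86 with each array centred, -0.99 without dim genes and -0.85 to -0.79 with 1 array left out. In null Eα against flox the number higher (2) was 1 with quantile normalization, without dim genes, with a trend and robust prior and with the replicate block, 0 with each array centred, 3 with chromosomes centred and 0 to 3 with 1 array left out; the median (-0.56) was -0.33 with quantile normalization, -0.64 with arrays centred, -0.62 without dim genes, -0.42 with chromosomes centred and -0.59 to -0.54 with 1 array left out. H2bc18 changed sign there with quantile normalization (0.038, adjusted p = 0.75). In null Eα against null the number lower (2) was 1 without dim genes and 1 to 2 with 1 array left out; the median (0.23) was 0.30 with quantile normalization, 0.18 with arrays centred, 0.33 without dim genes, 0.34 with chromosomes centred and 0.21 to 0.26 with 1 array left out. The cause was not tested.

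Centring chromosomes moved the median of all genes from 0.06 to 0.19 in null and from 0.07 to 0.27 in null Eα against flox, and the members' median relative to it was then -0.98 and -0.69. The share of called genes that were higher, over all genes, was 48% (63.6% with chromosomes centred), 50.4% (69.7%, and 40.1% with arrays centred) and 43% (63.3%) in the 3 comparisons. Without dim genes this share was 38.9%, 29.9% and 37%. Over the alternatives 6 to 11 S phase genes were higher in null Eα than in null. After each gene's group mean was subtracted, same-numbered arrays of different groups correlated at -0.03 to 0.26 and differently numbered ones at -0.20 to 0.14. Of the 9 arrays, 6 were closest to an array of their own number. The labels do not say what arrays of 1 number share, and the main fit did not treat them as pairs. With the replicate block 1 member was higher and 17 lower in null, 1 and 17 in null Eα against flox, and 9 and 2 in null Eα against null. The number of arrays and dim signals (H3c7, H2ac8 in null and null Eα, and H3c15 on 2 null Eα arrays) limit what could be called. The setting without dim genes left out H2ac8, H2bc21, H2bc22 and all H3 members (H3c4, H3c7 and H3c15).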
